A study of Mus musculus with 9 samples.

Results

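The nuclear genes that encode the respiratory chain and the ATP synthase were followed in the striatum of R6/2 and wild-type mice. A gene was a member if its symbol placed it among the Nduf genes of complex I, the 4 Sdh genes of complex II, the Uqcr genes and Cyc1 of complex III, Cycs, the Cox4 to Cox8 genes of complex IV, or the Atp5 genes of complex V. In all, 92 of the 18194 genes with a probe set of their own were members, each represented by its brightest probe set. They comprised 36 Nduf genes grouped under complex I by symbol alone, Ndufa4 and Ndufa4l2 among them. A further 8, whose symbols begin with Ndufaf, are assembly factors of that complex. The others were 4 genes of complex II, 9 of complex III, 1 for cytochrome c, 17 of complex IV and 17 of complex V. Values are log2 expression on whole-genome arrays, 1 array per mouse.

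The 9 mice were females of a mixed C57Bl/6 and CBA background at 12 weeks of age. The 4 controls were wild-type (animals 46, 47, 49 and 66, all 85 days old). The other 5 carried the R6/2 transgene, exon 1 of human huntingtin with an expanded CAG repeat under the human huntingtin promoter, and were 85 days (R62_86) or 83 days old (R62_95, R62_105, R62_107 and R62_109). The transgene is not limited to 1 cell type, and each sample is a piece of whole striatum that mixes neurons, glia and vessels.

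Complexes I to IV sit in the inner mitochondrial membrane. Electrons from NADH enter at complex I and those from succinate at complex II, pass through complex III to cytochrome c, and reach oxygen at complex IV. The proton gradient built on the way drives the ATP synthase, complex V. Most subunits are encoded in the nucleus, and a few core subunits of complexes I, III, IV and V are encoded by mitochondrial DNA, which these data do not describe. Neurons of the striatum depend heavily on this pathway, and the complex II poison 3-nitropropionic acid damages them.

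Only 2 of the 92 members (2.17%) passed an adjusted p of 0.05 by limma, 1 in each direction. Cox6a2, the heart and skeletal muscle isoform of a complex IV subunit, fell to 0.613 of the wild-type level, and Cyc1, the cytochrome c1 of complex III, rose to 1.15 times it. Over all genes 16.8% passed, 9.27% higher and 7.57% lower. The members were bright, with 72 of 92 in the brightest 10% of genes, and in that range 32.9% of all 1820 genes passed. Without adjustment, 15 members (16.3%) had a p under 0.05, against 31.2% of all genes. Members' values were separated without overlap between the groups in 3 cases with R6/2 above (Cyc1, Atp5b and Atp5g3) and in 2 with R6/2 below (Cox6a2 and Cox8c). Such separation was found in 9.18% of all genes with R6/2 above and in 8.09% with R6/2 below.

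**Figure D1:**
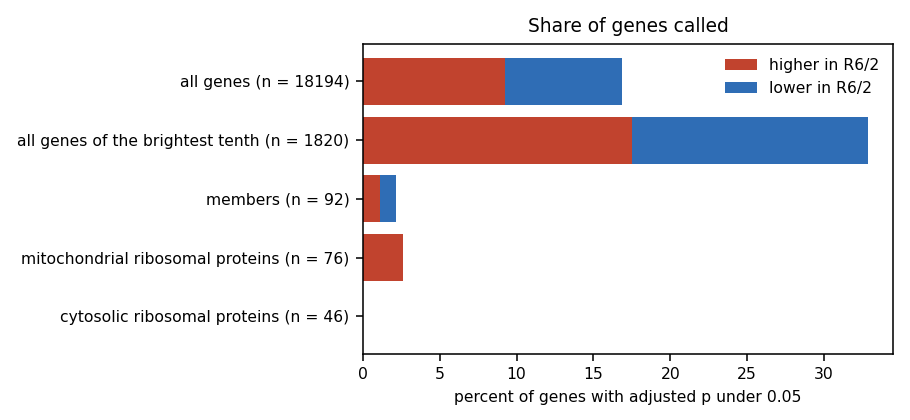
Percent of genes with an adjusted p under 0.05 (horizontal axis) among all 18194 genes, the 1820 brightest, the 92 members, and 2 lists of ribosomal protein genes, split by direction. The members' bar ends at 2.17%, against 16.8% for all genes.

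The 95% interval of the log2 difference, as limma gave it, lay within a 1.5-fold change either way (0.58 on the log2 scale) for 88 of the 92 members, and for 84.3% of all genes. It lay within 0.32 of 0 on the log2 scale for 61 members (66.3%), against 48.6% of all genes. The median standard error was 0.09 for the members and for all genes. The members outside the 1.5-fold range were Cox6a2, Cox8b, Uqcr11 and Ndufaf8. The median log2 difference, R6/2 minus wild-type, was -0.04 over the members and -0.02 over all genes.

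**Figure D2:**
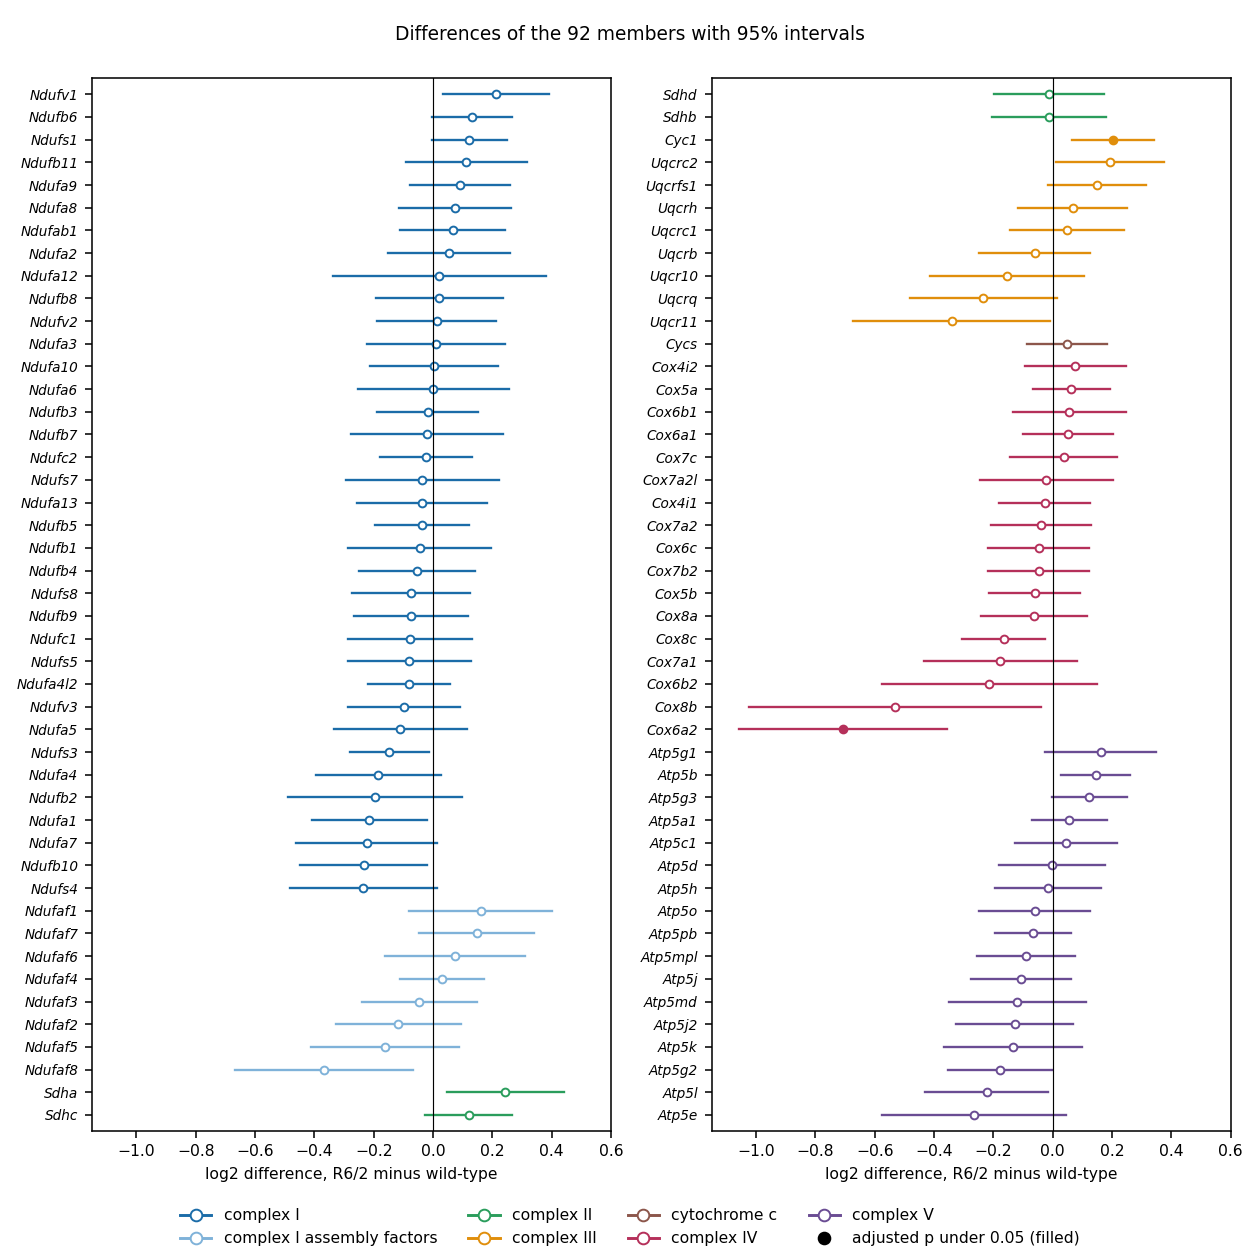
Log2 difference, R6/2 minus wild-type (horizontal axis), with its 95% interval for each of the 92 members, coloured by complex and ordered by value within it. Filled points passed an adjusted p of 0.05. Cox6a2 lies at -0.71 and Cyc1 at 0.20.

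One wild-type array stood apart for these genes. Wild-type 49 had the highest value of the 4 wild-type mice in 77 of the 92 members (83.7%), against 40.9% of all genes. The mean of the complex I genes reached 10.85 in wild-type 49, against 10.48 to 10.58 in the other controls and between 10.52 and 10.66 in the R6/2 mice. The array was thus above all the others for complex I, and it was so too for the 76 mitochondrial ribosomal protein genes (8.96 against 8.53 to 8.69) and the 46 cytosolic ones (10.83 against 10.46 to 10.61). The direction of the members as a group rested on it: 36 members were higher and 56 lower in R6/2 mice with all arrays, and 58 were higher and 34 lower without wild-type 49, at a median of 0.04. In that fit Cox6a2, Cyc1 and Uqcrfs1 passed (3.26% of the members, against 16.4% of all genes). Among R6/2 mice, R62_95 was the highest in 42 members and the lowest in 24, and its control probe sets differed most between the 3' and 5' ends of Actb (1.24, against 0.45 to 0.79 in the other 8 arrays) and Gapdh (0.40, against -0.22 to -0.06). Without both arrays 6 members passed (6.52%, against 18.2% of all genes), Cyc1, Sdha, Uqcrc2 and Uqcrfs1 higher and Cox6a2 and Ndufaf8 lower. The part of RNA quality in these differences was not tested.

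**Figure D3:**
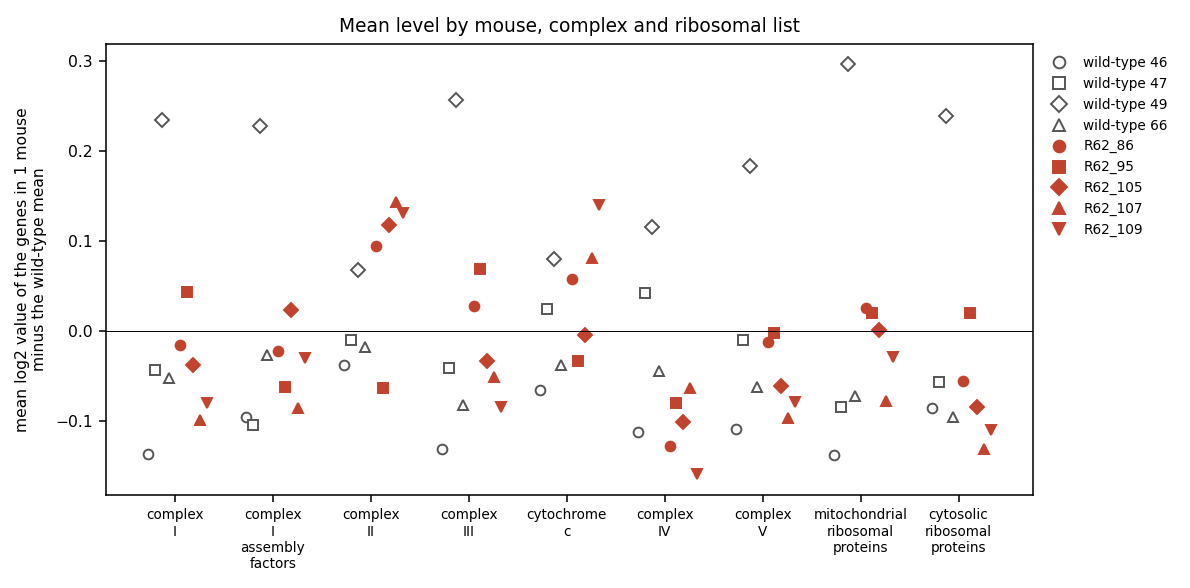
Mean log2 value of each complex, and of 2 ribosomal protein lists, in each mouse minus the wild-type mean (vertical axis). Open symbols are wild-type and filled symbols R6/2 mice. Wild-type 49 lies highest in complexes I, III, IV and V, in the assembly factors and in both ribosomal lists.

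The tissue was checked against markers fixed with the design. The 10 measured markers of spiny projection neurons, the main striatal neurons, had a mean of 11.22 to 11.53 in wild-type mice and of 9.36 to 10.31 in R6/2 mice, and 9 of them fell. The 8 cortex projection neuron markers had a mean of 5.33 to 6.52 in wild-type and of 6.31 to 7.36 in R6/2 mice, and 4 of them rose. By limma some markers were lower for interneurons (4 of 7), astrocytes (4 of 7), microglia (3 of 7) and oligodendrocytes (2 of 6). Over all genes 7.57% were lower and 9.27% higher. Positive differences, none called, were those of Pvalb (0.52) and Chat (0.04) for interneurons, Gfap (0.42) for astrocytes and Mag (0.13) for oligodendrocytes. Mbp (-0.03) and Mog (-0.04) hardly differed. None of the 4 endothelial markers passed by limma, with no unadjusted p under 0.05. None of the 8 choroid plexus markers passed either (1 unadjusted p under 0.05), but their mean varied between arrays, with 8.57 and 8.68 in wild-type 47 and 66, 7.05 in R62_107 and 5.29 to 6.13 in the other arrays. Each value is therefore a level in a mixed tissue, and fewer cells of a type cannot be told apart from less RNA per cell.

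Promoters of this pathway are known for sites of the nuclear respiratory factors NRF1 and GABP (NRF2), and the promoters of 75 members were found in the RefSeq table (GRCm38.p6, 250 bases before to 50 after the start). The letters GCGCNTGCG of the NRF1 site, on either strand, were present for 25 of the 75 (33.3%), against 11.7% of the genes on the arrays with a promoter and 19.0% of those in the brightest 10%. The GABP letters CCGGAAG were present for 25.3%, against 15.03% and 18.3%. The YY1 letters AAGATGGC were present for 13.3%, against 4.09% and 6.60%. The letters TNAAGGTCA of the estrogen-related receptors were present for 4.00%, against 1.204% and 1.213%. Members with and without the NRF1 letters had a median log2 difference of -0.02 and -0.04. A match describes the letters in the window and is not a binding site. The window of Atp5b, searched as well, held no match to any of these letters. No promoter was found for Cox6a2 or Cyc1, the called members. Below are the promoters of Sdha, which had the highest difference of all members, and of Cox6a1, the general isoform beside Cox6a2. Capitals mark matches to the letters above, and overlapping matches on both strands run together.
Sdha: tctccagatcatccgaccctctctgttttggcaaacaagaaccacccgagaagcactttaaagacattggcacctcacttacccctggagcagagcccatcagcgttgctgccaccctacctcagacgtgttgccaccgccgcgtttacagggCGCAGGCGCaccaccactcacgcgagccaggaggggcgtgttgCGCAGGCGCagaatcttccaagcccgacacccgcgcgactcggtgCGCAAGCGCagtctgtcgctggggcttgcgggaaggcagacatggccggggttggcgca
Cox6a1: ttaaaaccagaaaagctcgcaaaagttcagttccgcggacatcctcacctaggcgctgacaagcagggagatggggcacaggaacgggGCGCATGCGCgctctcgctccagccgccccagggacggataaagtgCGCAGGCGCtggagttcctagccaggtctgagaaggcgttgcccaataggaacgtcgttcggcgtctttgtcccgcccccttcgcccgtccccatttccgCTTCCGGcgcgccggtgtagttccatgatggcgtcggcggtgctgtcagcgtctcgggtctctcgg
The window of Sdha is chr13:74350191-74350490 and that of Cox6a1 chr5:115348909-115349208, both read on the minus strand. Sdha holds 3 matches, all to NRF1. Cox6a1 holds 3 matches to NRF1, of which the first pair starts 1 base apart, and 1 to GABP near the start.

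Complex I, the entry point for NADH, gave no call by limma among the 36 genes grouped under it by symbol. Of these, 4 had an unadjusted p under 0.05, and the fit without moderation called none either. The log2 differences lay between -0.23 and 0.21, at a median of -0.04, and 22 were negative. The interval of every one of the 36 lay within a 1.5-fold change. Ndufv1, which binds NADH and takes the first electrons, was 10.84, 10.76, 10.93 and 10.74 in wild-type 46, 47, 49 and 66. It was 10.94, 11.27, 11.01, 10.92 and 11.03 in R62_86, R62_95, R62_105, R62_107 and R62_109. The groups overlapped by a narrow margin, at wild-type 49 and R62_107, with a difference of 0.21 ± 0.08 (SE, limma adjusted p = 0.100), and R62_95 was the highest. Ndufs1, the large iron-sulphur subunit of the same arm, gave 0.12 ± 0.06 (limma adjusted p = 0.174).

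Against these, Ndufs3, another core subunit of the matrix arm, had a mean of 10.80 with an SD of 0.08 over the 4 wild-type mice, and of 10.65 with an SD of 0.05 over the 5 R6/2 mice (-0.15 ± 0.06 SE, limma adjusted p = 0.125). Ndufa1, a small accessory subunit of the membrane arm encoded on chromosome X, averaged 12.20 (SD 0.14, n = 4) against 11.99 (SD 0.12, n = 5), a difference of -0.21 ± 0.09 (SE, limma adjusted p = 0.122). Its interval ran from -0.41 to -0.02. The 6 measured core subunits thus gave 3 positive and 3 negative differences, at a median of -0.01, and 5 positive and 1 negative without wild-type 49, at a median of 0.0832. Ndufs4, an accessory subunit whose loss causes Leigh-like disease, was chosen after its values were seen: its brightest probe set gave -0.23 ± 0.11 (SE, limma adjusted p = 0.184), and a dimmer one -0.43 ± 0.11, which passed when every probe set was tested (limma adjusted p = 0.0308). The other probe sets of Ndufs4 gave -0.13 ± 0.12 (adjusted p = 0.542) and -0.08 ± 0.07 (adjusted p = 0.513).

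The 8 Ndufaf genes, which help to assemble complex I and are not part of it, gave 4 positive and 4 negative differences and no call by limma, with 1 unadjusted p under 0.05. That was Ndufaf8, named after its value was seen, at -0.37 ± 0.14 (SE, limma adjusted p = 0.0902). In the wider list of 17 complex I assembly genes, Acad9 alone passed, higher by 0.34 ± 0.06 (SE, limma adjusted p = 0.0035).

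Complex II feeds electrons from succinate oxidation and is the only complex with no subunit from mitochondrial DNA. Sdha, its flavoprotein (chr13:74322255-74350240, GRCm38.p6), was 11.31, 11.18, 11.05 and 11.25 in wild-type 46, 47, 49 and 66. It was 11.46, 11.17, 11.52, 11.52 and 11.54 in R62_86, R62_95, R62_105, R62_107 and R62_109. Every R6/2 mouse but R62_95 was above all wild-type mice. The difference was 0.24 ± 0.09 (SE, limma adjusted p = 0.0903), and 0.31 with an adjusted p = 0.0157 without R62_95. A second bright probe set of Sdha gave 0.35 ± 0.06 (SE) and passed when every probe set was tested (limma adjusted p = 0.00557). Its other, dimmer probe sets gave -0.12 ± 0.37 and -0.07 ± 0.08, and the mean of the probe sets gave 0.10 (adjusted p = 0.592). Sdhb, the iron-sulphur subunit, gave -0.01 ± 0.09. The membrane anchors Sdhc and Sdhd gave 0.12 ± 0.07 and -0.01 ± 0.08, and Sdhd was 9.57 in R62_95 and 9.90 to 9.93 in the other R6/2 mice.

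Complex III passes electrons from ubiquinol to cytochrome c. Cyc1, its cytochrome c1 (chr15:76343513-76346260), was 10.74, 10.78, 10.94 and 10.70 in wild-type 46, 47, 49 and 66. It was 10.95, 11.01, 11.00, 10.99 and 11.01 in R62_86, R62_95, R62_105, R62_107 and R62_109. All 5 R6/2 mice were above the 4 wild-type mice, although R62_86 exceeded wild-type 49 by little. Cyc1 rose by 0.20 ± 0.06 (SE, limma adjusted p = 0.0496). The call was at the edge: it held without wild-type 49 (0.25, adjusted p = 0.0124) and ended when any other mouse was left out (adjusted p 0.0735 to 0.127). With centring on 6 housekeeping genes, a scaling under which the median over all genes was -0.15 and not -0.02, the difference of Cyc1 was 0.07 (adjusted p = 0.566).

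The other catalytic and core subunits of complex III were on the same side. Uqcrfs1, the Rieske iron-sulphur protein, gave 0.15 ± 0.07 (SE, limma adjusted p = 0.206), Uqcrc2, a core protein, 0.19 ± 0.08 (adjusted p = 0.137) and Uqcrc1, the other core protein, 0.05 ± 0.09 (adjusted p = 0.743). The 5 small subunits gave 4 negative values, at a median of -0.15, and 3 negative values without wild-type 49, at a median of -0.0375. The lowest of them was Uqcr11, at 10.75, 10.84, 11.41 and 10.87 in wild-type 46, 47, 49 and 66, and at 10.73, 10.96, 10.48, 10.60 and 10.36 in R62_86, R62_95, R62_105, R62_107 and R62_109. The groups overlapped, wild-type 49 was the highest of all mice, and the difference was -0.34 ± 0.15 (SE, limma adjusted p = 0.150), and -0.19 without wild-type 49 (adjusted p = 0.325). Cycs, the soluble electron carrier that also triggers the apoptosome, averaged 11.82 (SD 0.07) over the 4 controls and 11.86 (SD 0.07) over the 5 R6/2 mice, with an interval of the difference from -0.09 to 0.18.

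Complex IV hands the electrons to oxygen, and several of its subunits exist as a general isoform and an isoform of muscle, lung or testis. The 9 measured general isoforms (Cox4i1, Cox5a, Cox5b, Cox6a1, Cox6b1, Cox6c, Cox7a2, Cox7c and Cox8a) had log2 differences from -0.06 to 0.06, with no call by limma and no unadjusted p under 0.05. Cox4i1 averaged 12.79 (SD 0.12, n = 4) against 12.76 (SD 0.05, n = 5), and its difference had an interval from -0.18 to 0.13. Cox5a, a matrix-side subunit, gave 0.06 ± 0.06 (SE), and Cox5b -0.06 ± 0.07. Cox7a2l, which joins complexes III and IV into supercomplexes, gave -0.02 ± 0.10.

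Cox6a2 (chr7:128205435-128206366) was the member with the smallest p. It was 7.02, 7.08, 7.49 and 6.86 in wild-type 46, 47, 49 and 66. It was 6.62, 6.69, 6.01, 6.51 and 6.19 in R62_86, R62_95, R62_105, R62_107 and R62_109. Every R6/2 mouse was below every wild-type mouse, and R62_105 and R62_109 were the lowest. Cox6a2 fell by 0.71 ± 0.16 (SE, limma adjusted p = 0.0127), with an interval of the difference from -1.06 to -0.36. The call held when any 1 mouse was left out (difference -0.79 to -0.58, adjusted p 0.0112 to 0.0346) and under each rescaling. It ended without limma's moderation (adjusted p = 0.0574). It also ended without the 3 arrays richest in choroid plexus markers (-0.88 ± 0.22 SE, adjusted p = 0.0678). That fit kept wild-type 46 and 49 as the only controls. In it 4.85% of all genes passed, against 16.8% with all arrays. With the cortex marker score as a covariate the call ended too (-0.47 ± 0.24 SE, adjusted p = 0.397). That score was 5.33 to 6.52 in wild-type and 6.31 to 7.36 in R6/2 mice, and 1.1% of all genes passed in the fit. For both the choroid and the cortex fit, a lost call cannot be told apart from lost precision. With age as a covariate the difference was -0.49. That fit compares R62_86 alone with the wild-type mice, because no wild-type mouse shared the age of the other R6/2 mice. It therefore cannot decide the call. The other probe set of Cox6a2, at a mean of 4.35, gave -0.34 ± 0.14 and did not pass (adjusted p = 0.147, every probe set tested).

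**Figure D4:**
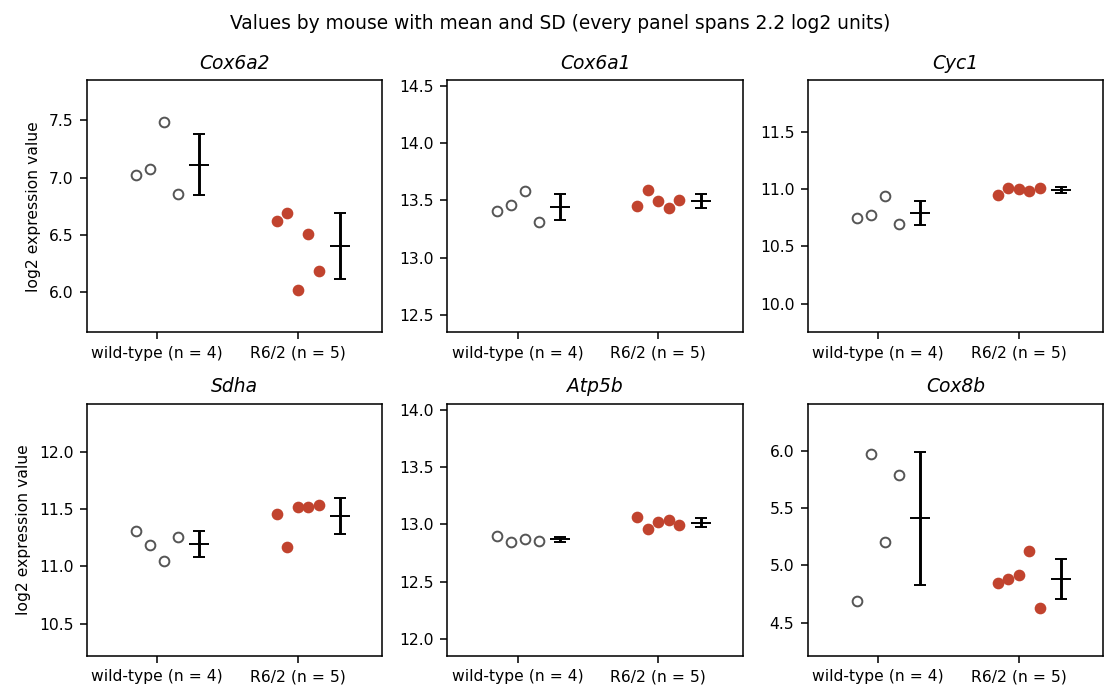
Log2 value in each mouse (vertical axis) for Cox6a2, Cox6a1, Cyc1, Sdha, Atp5b and Cox8b, with the mean and SD of each group as a bar beside the points. The 5 R6/2 mice lie below the 4 wild-type mice for Cox6a2 and above them for Cyc1 and Atp5b.

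The spiny neuron marker mean was also lowest in R62_105 and R62_109, being 9.36 in R62_105, 9.86 in R62_109, 10.06 in R62_86, 10.23 in R62_95 and 10.31 in R62_107. Pvalb, the marker of the fast-spiking interneurons, averaged 8.89 in R6/2 and 8.37 in wild-type mice (limma adjusted p = 0.266). Most of the 7 interneuron markers went the other way, with 5 negative differences, 4 of them called lower, and a median of -0.33. The part of the lower spiny neuron markers in the value of Cox6a2 was not tested. Among members, those whose deviations from the genotype means over the 9 mice were most like the deviations of Cox6a2 were Uqcrc1 (Pearson r 0.90), Uqcr11 (0.86), Atp5k (0.83), Atp5e (0.80) and Ndufa6 (0.78). In all of them wild-type 49 was the highest wild-type mouse, and without that mouse the 5 values ran from 0.67 to 0.85. All genes of a mouse come from 1 array, so a shift of a whole array enters every one of these values.

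The general isoform Cox6a1 did not pass. It averaged 13.44 (SD 0.12) over the 4 controls and 13.49 (SD 0.06) over the 5 R6/2 mice, with an interval of the difference from -0.10 to 0.20. The log2 value of Cox6a2 minus that of Cox6a1 changed by -0.76 between the groups, from -6.33 (SD 0.16, n = 4) to -7.09 (SD 0.29, n = 5), with no overlap (exact two-sided permutation p = 0.00794, the smallest that 126 splits allow, and 0.0397 adjusted over the 5 isoform pairs compared). The minus sign of these values carries no meaning across probe sets, and the change between groups is the measurement. Because Cox6a1 hardly differed, the change of this pair mostly repeats the fall of Cox6a2 (-0.71) and is not separate support for it. For the other pairs the change was 0.10 for Cox4i2 against Cox4i1, -0.27 for Cox6b2 against Cox6b1, -0.14 for Cox7a1 against Cox7a2 and -0.47 for Cox8b against Cox8a (exact permutation p 0.159 to 0.317, adjusted p = 0.317 for each).

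Cox8b, the muscle isoform of the smallest subunit, had the widest spread. It was 4.69, 5.97, 5.20 and 5.79 in wild-type 46, 47, 49 and 66, and 4.85, 4.88, 4.92, 5.12 and 4.63 in R62_86, R62_95, R62_105, R62_107 and R62_109. The highest wild-type values belonged to 47 and 66 and the highest R6/2 value to R62_107, the arrays with the highest choroid plexus marker means in their groups. Wild-type 49, with a low choroid plexus marker mean (5.75), was above R62_107 (7.05) for Cox8b. The part of choroid plexus tissue in these values was not tested. The difference was -0.53 ± 0.22 (SE, limma adjusted p = 0.131). Without those 3 arrays, which left wild-type 46 and 49 as the only controls, it was -0.13 (adjusted p = 0.662). It was -0.35 without wild-type 47 (adjusted p = 0.316), and it passed without wild-type 46 (-0.77, adjusted p = 0.0139) and with housekeeping centring (-0.67, adjusted p = 0.0479). Cox6b2, the testis isoform, was likewise highest in wild-type 47 (6.68) and in R62_107 (6.32), and gave -0.21 ± 0.16 (adjusted p = 0.413). Cox8c, the third isoform of the smallest subunit, was 7.40 to 7.56 in wild-type and 7.21 to 7.37 in R6/2 mice, without overlap (-0.17 ± 0.06, adjusted p = 0.104). A dimmer probe set of Cox8c gave -0.01 ± 0.09 (limma adjusted p = 0.948, every probe set tested). Cox4i2, the lung isoform, and Cox7a1, the muscle isoform, were among the dim genes and gave 0.08 ± 0.08 and -0.18 ± 0.12.

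Complex V gave no call among 17 genes by limma, where 3 had an unadjusted p under 0.05, and the fit without moderation called 1, Atp5b. The catalytic beta subunit Atp5b was 12.90, 12.85, 12.87 and 12.86 in wild-type 46, 47, 49 and 66. It was 13.06, 12.96, 13.02, 13.04 and 12.99 in R62_86, R62_95, R62_105, R62_107 and R62_109. The groups did not overlap, and both were narrow, but the difference was only 0.14 ± 0.05 (SE, limma adjusted p = 0.0890). It was 0.0083 after housekeeping centring (adjusted p = 0.932), and the adjusted p was 0.0124 without moderation. Its partners in the F1 head, Atp5a1 and Atp5c1, gave 0.06 ± 0.06 and 0.04 ± 0.08.

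The 3 genes that encode the identical mature c-ring subunit differed in sign, and none passed. Atp5g1 gave 0.16 ± 0.08 (SE, limma adjusted p = 0.223), Atp5g3 0.12 ± 0.06 (adjusted p = 0.168) with all R6/2 mice (12.56 to 12.61) above the wild-type mice (12.37 to 12.54), and Atp5g2 -0.18 ± 0.08 (adjusted p = 0.152). The 4 genes of the peripheral stalk (Atp5h, Atp5j, Atp5o and Atp5pb) gave negative values from -0.11 to -0.02, but without wild-type 49 Atp5h (0.0563) and Atp5o (0.0235) were positive. The 5 small membrane subunits (Atp5j2, Atp5k, Atp5l, Atp5md and Atp5mpl) were negative as well, from -0.22 to -0.09. Without wild-type 49 they ran from -0.12 to 0.0042, so the size of these values rested on that array. The lowest value of complex V was that of Atp5e, the small epsilon subunit, at -0.27 ± 0.14 (limma adjusted p = 0.229), and -0.11 without wild-type 49. The lowest small membrane subunit was Atp5l, subunit g, at -0.22 ± 0.09 (adjusted p = 0.132), which was 11.73 in wild-type 49, 11.24 to 11.36 in the other wild-type mice and 11.15 to 11.24 in R6/2 mice.

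By complex, the median log2 difference was -0.04 for complex I, 0.05 for complexes II and III, 0.05 for cytochrome c, -0.05 for complex IV and -0.07 for complex V, against -0.02 for all genes. The mean of the complex IV genes averaged 9.17 (SD 0.10) over the 4 controls and 9.07 (SD 0.04) over the 5 R6/2 mice. It includes the dim isoforms Cox6a2 (-0.71) and Cox8b (-0.53), which had the largest differences of that complex. The 9 general isoforms had a median difference of -0.03. The mean of the complex II genes averaged 10.58 (SD 0.05) and 10.66 (SD 0.08). Without wild-type 49 all 3 negative medians turned positive, to 0.0485 for complex I, 0.033 for complex IV and 0.0042 for complex V.

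Genes around the pathway were taken from lists fixed with the design. Of 47 measured assembly factors of the 5 complexes, 3 were higher and 1 lower by limma (8.51%, against 16.8% of all genes). Besides Acad9, these were Surf1 of complex IV (0.33 ± 0.09 SE, adjusted p = 0.0245), Atpaf1, a chaperone of the F1 head (0.37 ± 0.09, adjusted p = 0.0174), and Ttc19 of complex III (-0.28 ± 0.07, adjusted p = 0.0261). Leaving out 1 mouse ended the call of Surf1 in 6 of 9 cases (up to an adjusted p of 0.0713), that of Ttc19 in 3 (0.0631) and that of Atpaf1 in 1 (0.0537), and never that of Acad9.

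Of 7 carriers and porins that move adenine nucleotides, phosphate and metabolites, 3 were higher and none lower, where 9.27% of all genes were higher and 7.57% lower. Vdac3 was higher by 0.31 ± 0.06 (SE, limma adjusted p = 0.00735) and Vdac2 by 0.26 ± 0.06 (adjusted p = 0.015), both porins of the outer membrane, whereas Vdac1 gave -0.03 ± 0.05. Slc25a4, an ADP/ATP carrier, was higher by 0.21 ± 0.06 (adjusted p = 0.0414), a call that held in 1 of 9 fits with a mouse left out. After housekeeping centring none of the 3, nor any of the 3 higher assembly factors, passed (differences 0.07 to 0.23, adjusted p 0.0547 to 0.426). Ckmt1, the mitochondrial creatine kinase, was lower by 0.26 ± 0.07 (adjusted p = 0.0274), and the call held in 4 of 9 fits with a mouse left out.

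Of 23 genes of mitochondrial protein import, Tomm70a, a receptor of the outer membrane, was lower by 0.71 ± 0.09 (SE, limma adjusted p = 0.000787) and no other passed. The share called was 4.35%, against 16.8% of all genes. With the cortex marker score as a covariate no call among the assembly factors, carriers, Ckmt1 and Tomm70a held, while most differences stayed near their size: -0.67 for Tomm70a (adjusted p = 0.0684), 0.47 for Atpaf1 (0.147), 0.31 for Acad9 (0.167), 0.27 for Vdac3 (0.258), -0.28 for Ttc19 (0.323), -0.24 for Ckmt1 (0.365), 0.28 for Surf1 (0.384), 0.19 for Vdac2 (0.401) and 0.12 for Slc25a4 (0.628). Over all genes 1.1% passed with the cortex score, so a lost call there cannot be told apart from lost precision. The fit with age as a covariate compares R62_86 alone with the wild-type mice, so it cannot decide these calls. Without the 3 choroid-rich arrays Tomm70a alone of these passed (-0.75, adjusted p = 0.0213), where 4.85% of all genes passed. Of the 76 mitochondrial ribosomal protein genes 2 were higher and none lower, at a median of 0.02, and of the 46 cytosolic ribosomal protein genes none passed by limma, with 4 unadjusted p under 0.05, at a median of -0.05. The shares called were 2.63% and 0, beside 16.8% of all genes.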

How the data were processed

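Striatal RNA of 9 mice was measured with 1 array each. The deposited values are log2 expression, which the authors made with RMA, and the submitters' processing notes also name affy (versions not given in the sources used here). RMA corrects background, equalises the distribution of probe intensities over arrays and summarises probe sets, so a change in total RNA cannot be seen. The labelling, per the labels, used in vitro transcription with biotin.

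Of 45101 probe sets, 35890 were listed in the array annotation and 34945 named 1 gene, with symbols updated by gene identifier from RefSeq GRCm38.p6. Manufacturer control probe sets were left out, and so were 10 probe sets that name a gene of the rule beside others. The brightest probe set of each gene was tested with limma 3.58.1 (lmFit, eBayes, genotype only) in R 4.3.3, two-sided, with Benjamini-Hochberg adjustment over 18194 genes and a threshold of 0.05. Arrays correlated at 0.979 to 0.996, their number limits the precision, and the labels name no batch. The labels number separate animals, so p-values measure the spread between animals. No filter on dim genes was set.

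The members and lists were chosen with earlier results of these data known. Named genes were, for each complex and cytochrome c, the 3 members of smallest p and the one with the smallest p against the median's sign, fixed isoform pairs and catalytic subunits, and the 5 members most like the one with the smallest p. The scripts were tested on simulated data. Alternatives were other probe set rules, a brightness filter (50%), 3 rescalings, other variance settings, covariates, a stricter threshold and mice left out. Figures used matplotlib 3.10.9.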

Additional observations from a re-analysis of the deposited data

Results flagged for a closer look

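Checked in 82 groups of values (each named member and each mean per complex, in each genotype), an extreme mouse stood apart by Dixon's criterion in 8, and chance flags about 1 in 20. R62_95 was far below the other R6/2 mice for Sdha (11.17, nearest 11.46) and Sdhd (9.57, nearest 9.90) and so in the mean of complex II (10.51, nearest 10.67), and far above them for Cox7a2l (10.73, nearest 10.52). Wild-type 49 was far above the other wild-type mice for Cox4i1 (12.97, nearest 12.75), Cox7a2 (12.70, nearest 12.41) and Cox7a2l (10.91, nearest 10.48). Wild-type 66 was far below them for Cox4i2 (4.33, nearest 4.59).

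A probe set outside the comparison, which names both Yjefn3 and Ndufa13, was lower in R6/2 mice by limma over all probe sets (-0.62 ± 0.12 SE, adjusted p = 0.00887). The probe set that names Ndufa13 alone gave -0.04 ± 0.10 (SE), and which of the 2 genes the first one reports was not tested.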

How the results depend on the processing

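Of the members, 1 was called higher and 1 lower. Called higher were 2 with the mean of the probe sets or without moderation, and 5 with array weights (which gave wild-type 49 a weight of 0.323). There were 3 with the cytosolic ribosomal score as a covariate and 4 without wild-type 49 and R62_95 (both added after the data were seen). Median centring, housekeeping centring, the cortex score as a covariate, leaving out the 3 choroid-rich arrays and an adjusted p of 0.01 gave 0. Called lower were 11 with housekeeping centring, and 2 with every probe set, with the ribosomal covariate or without both arrays. The cortex score, leaving out the 3 choroid-rich arrays, no moderation and a threshold of 0.01 gave 0. Over all genes 201 were called with the cortex score, 882 without the 3 arrays and 1257 at 0.01, against 3065. The shares of members and of all genes called were 12% and 21.7% with housekeeping centring and 6.52% and 20.8% with array weights. They were 5.43% and 16.6% with the ribosomal covariate, and 6.52% and 18.2% without both arrays. The mean of the probe sets gave 3.26% and 14.5%, no moderation 2.17% and 11%, and the second brightest probe set 2.17% and 10.4%. Every probe set gave 1.63% and 10.4%. With 1 mouse left out the shares were 1.09% to 4.35% of the members and 12% to 16.4% of all genes. The age covariate left R62_86 alone against the wild-type mice, so its counts are not given. Leaving out 1 mouse gave 0 to 2 higher and 1 to 2 lower. The second brightest probe set gave 1 each way, Sdha and Ndufs4 in place of Cyc1 and Cox6a2. Quantile normalization, the brightness filter, annotation symbols and trend with robust settings changed neither count.

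With housekeeping centring the medians were -0.17 (complex I), -0.0827 (II), -0.0874 (III), -0.0882 (cytochrome c), -0.18 (IV) and -0.20 (V). With the mean of the probe sets cytochrome c was -0.0372. Leaving out 1 mouse gave -0.09 to 0.05 for complex I, 0.0264 to 0.11 for II, -7e-04 to 0.11 for III, 0.0249 to 0.0745 for cytochrome c, -0.0717 to 0.033 for IV and -0.12 to 0.0042 for V. Of 17 genes recomputed under these settings (every probe set was not among them, and the brightness filter removed Cox8b), 5 changed sign, all uncalled. Sdhd was 0.0327 with the mean of the probe sets, 0.0781 with the second brightest, 0.0539 with age, 0.0415 with array weights and 0.0859 without both arrays, and ran from -0.0325 to 0.0558 with 1 mouse left out (positive without wild-type 49 or R62_95). Atp5g2 was 0.0048 with the second brightest probe set. Cycs was -0.0372 with the mean of the probe sets and -0.0882 with housekeeping centring, where Sdhc was -0.0166 and Cox5a -0.0736, and Cox5a was -0.0263 with the cortex score. The cause was not tested. No paired analysis was possible because the animal numbers of the groups are not shared.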
